A study of Homo sapiens with 4 samples.

Results

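HLA-B, HLA-C, HLA-E, HLA-F, B2M, TAP1, TAP2, TAPBP and NLRC5, 9 of the 24424 gene symbols measured, were followed across 4 libraries of BEAS-2B cells. They were taken by name as genes of MHC class I antigen presentation, by a rule that uses no measured value, though earlier results of these data were known when it was set. BEAS-2B is an established human line from bronchial epithelium, and all libraries came from cells labelled wild type. Control cells received no treatment, and LPS cells received LPS, the lipopolysaccharide of the outer membrane of gram-negative bacteria, for 2 hr. WT PDZ+LPS cells received a peptide made from the first PDZ domain of the tight junction protein ZO-1, with an added cell-penetrating stretch, for 24 hr and then LPS for 2 hr. In mut PDZ+LPS cells the peptide carried alanines in place of a pair of neighbouring glycines, and the times were the same. A library with peptide and no LPS was not analysed here, so the peptides were seen only on top of LPS. Each condition had 1 library, so no difference has a replicate check, no test between conditions was possible and no p-value is given.

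MHC class I molecules carry peptides from proteins of the cell interior to the cell surface, where CD8 T cells and natural killer cells read them. HLA-B, HLA-C, HLA-E and HLA-F encode heavy chains, which pair with the light chain beta-2 microglobulin, encoded by B2M. TAP1 and TAP2 form the transporter that moves peptides into the endoplasmic reticulum, and tapasin, encoded by TAPBP, holds an empty heavy chain at that transporter while a peptide is loaded. NLRC5 is the transactivator of this gene group, which it reaches through proteins bound at the X and Y boxes of the promoters, and many of the promoters are also known for NF-kB and IRF elements.

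Promoters of 4 of the genes are shown, since the results turn on TAPBP and on how TAP1, B2M and HLA-B stand beside it. Each line gives the 250 bases before the gene start from RefSeq, build GRCh38.p14, on the strand of the gene. Capitals mark matches to the consensus kB motif and to the IRF motif GAAANNGAA or its mirrored form GAANNGAAA on either strand, and neighbouring or overlapping matches run together. The windows lie at chr6:33314079-33314328 on the minus strand for TAPBP, chr6:32853705-32853954 on the minus strand for the first of 2 TAP1 starts, chr15:44711267-44711516 on the plus strand for B2M and chr6:31357180-31357429 on the minus strand for HLA-B.
TAPBP: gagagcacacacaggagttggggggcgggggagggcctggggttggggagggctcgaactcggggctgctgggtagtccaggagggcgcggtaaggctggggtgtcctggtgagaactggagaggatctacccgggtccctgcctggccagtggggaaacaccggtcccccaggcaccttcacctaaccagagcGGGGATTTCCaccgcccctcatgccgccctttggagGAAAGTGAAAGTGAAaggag
TAP1: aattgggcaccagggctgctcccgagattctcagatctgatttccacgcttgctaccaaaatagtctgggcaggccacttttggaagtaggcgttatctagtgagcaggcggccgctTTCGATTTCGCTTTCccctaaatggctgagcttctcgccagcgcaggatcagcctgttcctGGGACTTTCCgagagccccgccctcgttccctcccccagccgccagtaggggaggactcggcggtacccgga
B2M: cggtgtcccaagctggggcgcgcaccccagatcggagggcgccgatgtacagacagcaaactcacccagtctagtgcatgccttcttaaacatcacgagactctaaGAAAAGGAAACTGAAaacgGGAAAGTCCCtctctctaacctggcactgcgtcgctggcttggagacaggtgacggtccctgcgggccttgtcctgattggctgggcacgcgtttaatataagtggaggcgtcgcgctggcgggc
HLA-B: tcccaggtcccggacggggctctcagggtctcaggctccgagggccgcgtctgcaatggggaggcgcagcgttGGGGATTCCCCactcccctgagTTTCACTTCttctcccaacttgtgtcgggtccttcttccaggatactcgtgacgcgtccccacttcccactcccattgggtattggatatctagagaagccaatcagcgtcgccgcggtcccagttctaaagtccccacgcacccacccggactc

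TAPBP held a kB match whose first base lay 56 bases before the start, and IRF matches at -20 and -14 that overlapped each other. TAP1 held IRF matches at -133 and -127 and a kB match at -72, with another kB match on the other strand at 23 bases after the start. In B2M the order was the same, with IRF matches at -144 and -138 and a kB match at -125. HLA-B had overlapping kB matches at -177 and -176 and a mirrored IRF match at -155. Promoters were given for 7 of the 9 genes, all but HLA-E and NLRC5, and were searched from 250 bases before to 50 bases after the start. For TAP1 2 starts were given, and the window of the second held no match to any of the motifs, so the gene is counted by its first. A kB match was present in 5 of the 7 (B2M, HLA-B, HLA-C, TAP1 and TAPBP) and in 11.3% of the 35116 promoters of the table, which are counted per start. The IRF motif was present in 5 of 7 (B2M, HLA-F, TAP1, TAP2 and TAPBP) against 8.11% of all promoters, and its mirrored form, added after the sequences were seen, in 3 of 7 (HLA-B, HLA-C and TAP2) against 7.66%. Both kB and IRF matches stood in B2M, TAP1 and TAPBP, against 0.618% of all promoters. The Y box ATTGG was found in 5 of 7 against 34.6% of all promoters, and the X2 element TGACG in 4 of 7 against 24.6%. TAPBP held neither of these short motifs in its window. A match describes letters in a window and not a bound factor, no binding was measured, and HLA-B, HLA-C and HLA-F are related genes whose promoters resemble each other.

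**Figure D1:**
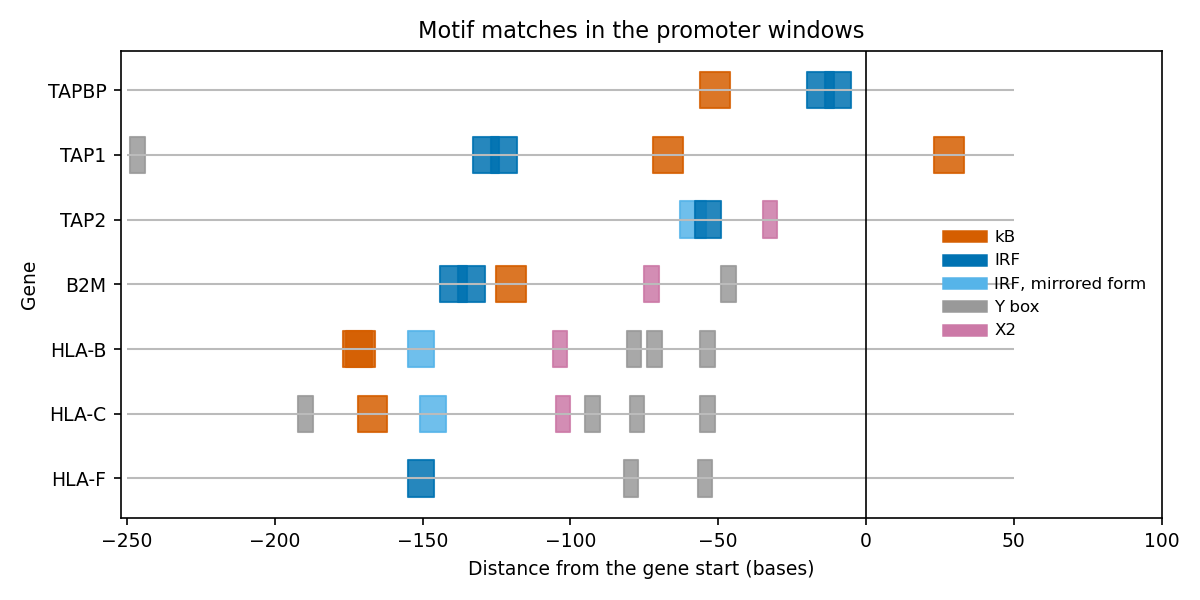
Motif matches in the promoter windows of 7 genes, drawn by distance in bases from the gene start (vertical line at 0); each box is 1 match, coloured by motif, and overlapping boxes are overlapping matches. TAPBP carries its kB box at -56 and its IRF boxes at -20 and -14, nearer to the start than the kB and IRF boxes before the start in TAP1, B2M, HLA-B and HLA-C.

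The libraries held 19682929 to 25155647 counts, and counts were divided by geometric size factors (0.851 to 1.15) to give the normalized counts used below. All 8 epithelial markers averaged at least 16 normalized counts over the 4 libraries, with summed levels of 80456, 80547, 75617 and 107390 normalized counts in Control, LPS, and the WT and mut peptide libraries. KRT7 was the largest part of each sum (38725 to 51663) and EPCAM the smallest (34.8 to 49.5). Of 9 leukocyte markers, summed at 738 to 904 normalized counts, 2 reached that level, CD14 (366 to 523) and CD68 (305 to 362). PTPRC, the pan-leukocyte marker, had no count in any library. Of 8 fibroblast markers, summed at 1913 to 2118 normalized counts, 3 reached it. These were THY1 (1403 to 1604), COL1A1 (288 to 422) and PDGFRB (78.7 to 121), while COL3A1 and LUM were at 0. Of 5 endothelial markers, summed at 25.8 to 35.3 normalized counts, 1 reached it. In bulk RNA, fewer expressing cells and less RNA per cell cannot be told apart. The mut PDZ+LPS library had a further property that touches the results below. Its log2 fold change against LPS ran with transcript length, with a Spearman rho across 11751 genes of -0.603. The rho of WT PDZ+LPS/LPS was 0.0736 and that of LPS/Control 0.154. With GC content the rho was 0.413 in mut PDZ+LPS/LPS, -0.0887 in WT PDZ+LPS/LPS and -0.0184 in LPS/Control.

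The 9 genes spanned a wide range of levels, which were compared per kb of transcript, with the length of each gene's longest coding transcript in GENCODE 29. HLA-B averaged 11492 normalized counts per kb over the 4 libraries, B2M 11067 and HLA-C 8545. These were the most abundant of the group, and the ranges of HLA-B (9669 to 13645) and B2M (9776 to 12655) overlapped over the libraries. HLA-E, the ligand of the natural killer receptor NKG2A, came next at 1330 normalized counts per kb, followed by TAPBP at 1055 and TAP1 at 842. The range of HLA-E lay wholly below that of HLA-C, while the ranges of HLA-E and TAPBP, and of TAPBP and TAP1, overlapped. TAP2 stood at 528 and HLA-F at 481 normalized counts per kb with overlapping ranges, and TAP2 (467 to 556) lay below TAP1 (655 to 944) in every library. NLRC5 was the lowest at 161 normalized counts per kb, with a range of 151 to 166. Together the 9 genes took 0.254% of the reads in Control, 0.269% in LPS, 0.276% with the WT peptide and 0.324% with the mut peptide. The order of the genes was not the same in every library. In Control TAPBP lay below TAP1 (573 against 655 normalized counts per kb), and in LPS above it (1269 against 944). HLA-F lay below TAP2 in Control (380 against 467) and above it in mut PDZ+LPS (642 against 535). With transcripts of 1635 and 5684 nt, this change ran in the direction of the length trend of the mut PDZ+LPS library, whose part in it was not tested. Once the length and GC trends were removed as described below, the log2 fold change in mut PDZ+LPS/Control was 0.48 for HLA-F and 0.50 for TAP2. B2M lay just above HLA-B in Control (9776 against 9669) and below it in LPS.

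**Figure D2:**
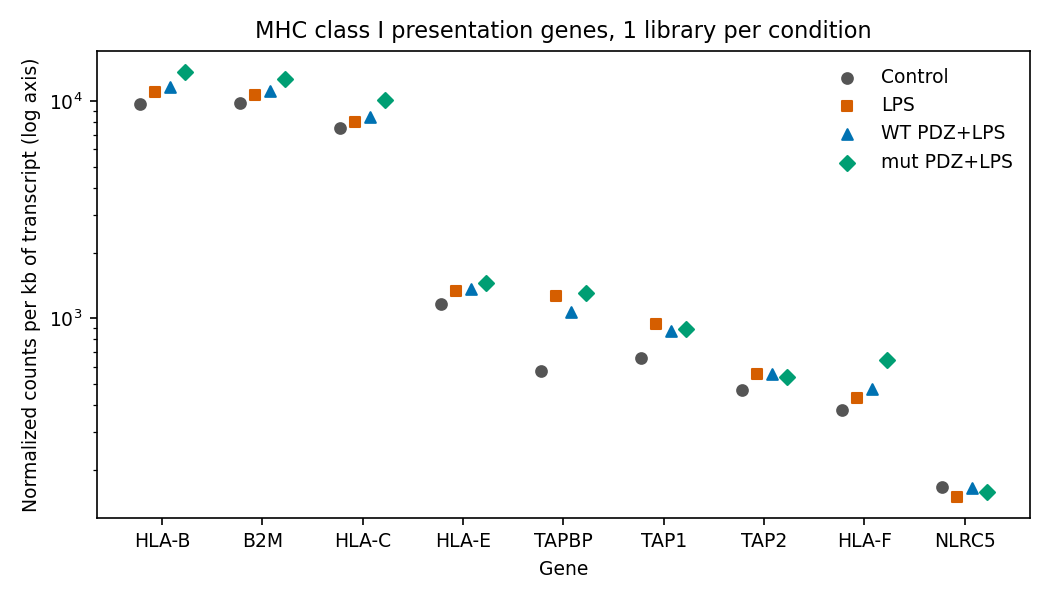
Level of each gene in the 4 libraries, in normalized counts per kb of transcript on a log axis, with 1 point per library and therefore no error bar. HLA-B, B2M and HLA-C lie highest, from 7567 to 13645, NLRC5 lies lowest at 151 to 166, and the Control point of TAPBP (573) stands apart from its 3 LPS-treated points (1073 to 1306).

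LPS/Control asked which of the genes differed after 2 hr of LPS. TAPBP stood out. It was measured at 2152 normalized counts in Control, 4769 in LPS, 4032 with the WT peptide and 4910 with the mut peptide. All 3 LPS-treated libraries were thus above Control, by 2.22-fold in LPS/Control, a log2 fold change of 1.15 with a 95% counting interval of 1.08 to 1.22. The interval is exact binomial (Clopper-Pearson) and covers the counting error between 2 libraries and not the spread between cultures, and reads counted without molecular identifiers can be copies of 1 molecule. TAPBP was the 1 gene of the 9 called at least 2-fold higher with at least 16 normalized counts, beside 3.46% of the 13277 genes under the same rule, and 0 of the 9 were at least 2-fold lower, beside 1.41%.

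Among the transporter subunits, TAP1 was measured at 1938, 2794, 2597 and 2643 normalized counts in Control, LPS, and the WT and mut peptide libraries. It was 1.44-fold higher in LPS than in Control, with a log2 fold change of 0.53 (interval 0.45 to 0.61), which did not reach 2-fold. TAP2 was measured at 2656, 3143, 3159 and 3043 normalized counts in the same order, with a log2 fold change in LPS/Control of 0.24 (0.17 to 0.31). The 3 LPS-treated libraries were again above Control for both subunits, and the intervals of TAP1 and TAP2 in LPS/Control did not overlap. Reads on TAP1 per 100 reads on TAP2 went from 73.0 (69.1 to 77.1) in Control to 88.9 (84.6 to 93.4) in LPS, a ratio that no scaling of the libraries can change.

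The heavy chain genes differed less. HLA-B was measured at 14957 normalized counts in Control, 17056 in LPS, 17988 with the WT peptide and 21109 with the mut peptide, and HLA-C at 11759, 12462, 13095 and 15801. In both, Control was the lowest library and mut PDZ+LPS the highest as counted, an order that did not hold among the LPS-treated libraries once the length and GC trends described below were removed. The log2 fold change in LPS/Control was 0.19 (0.16 to 0.22) for HLA-B and 0.08 (0.05 to 0.12) for HLA-C. HLA-E was measured at 3023, 3493, 3540 and 3783 normalized counts, with a log2 fold change of 0.21 (0.14 to 0.28), and HLA-F at 621, 705, 775 and 1049, with 0.18 (0.03 to 0.33). HLA-F is the least abundant of these heavy chains, and its interval was the widest of the 9. The light chain gene B2M was measured at 16668, 18210, 19023 and 21576 normalized counts, with a log2 fold change of 0.13 (0.10 to 0.16). Under scaling by total count, where the median of all genes came to -0.13, B2M came to -0.0037 and HLA-C to -0.048, so their direction depended on the scaling. HLA transcripts are near-identical in places and vary between people, so reads may have been assigned to the wrong HLA gene or lost, and the 4 values are uncertain in that respect. In GENCODE 29 the models of HLA-B and HLA-C also overlap on 1 strand, and antisense genes lie opposite TAP1 (PSMB8-AS1, 88 to 109 counts) and HLA-F (HLA-F-AS1, 26 to 45 counts), while the use of strand in the counting is not given in the sources used here.

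NLRC5 went the other way in LPS/Control. It was measured at 1136 normalized counts in Control, 1031 in LPS, 1132 with the WT peptide and 1083 with the mut peptide, and its log2 fold change in LPS/Control was -0.14 (-0.26 to -0.02). Its 4 libraries lay close together, and against Control the intervals of the WT peptide library (-0.12 to 0.11) and of the mut peptide library (-0.19 to 0.05) included 0. In LPS/Control the counting interval lay above 0 for 8 of the 9 genes, beside 25.9% of all genes, and below 0 for 1, NLRC5, beside 21.3%. Such an interval narrows with the number of reads, and the shares of all genes, here and below, were not matched for abundance. By mean normalized count, B2M, HLA-B and HLA-C lay at percentiles 99.1, 99.0 and 98.4 of the genes averaging at least 16. The lowest of the 9 was HLA-F at 52.6. The 8 of 9 can therefore not be read directly against the 25.9%. The median log2 fold change of the 9 was 0.19, and that of the 13072 genes averaging 16 normalized counts or more was -0.0010.

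**Figure D3:**
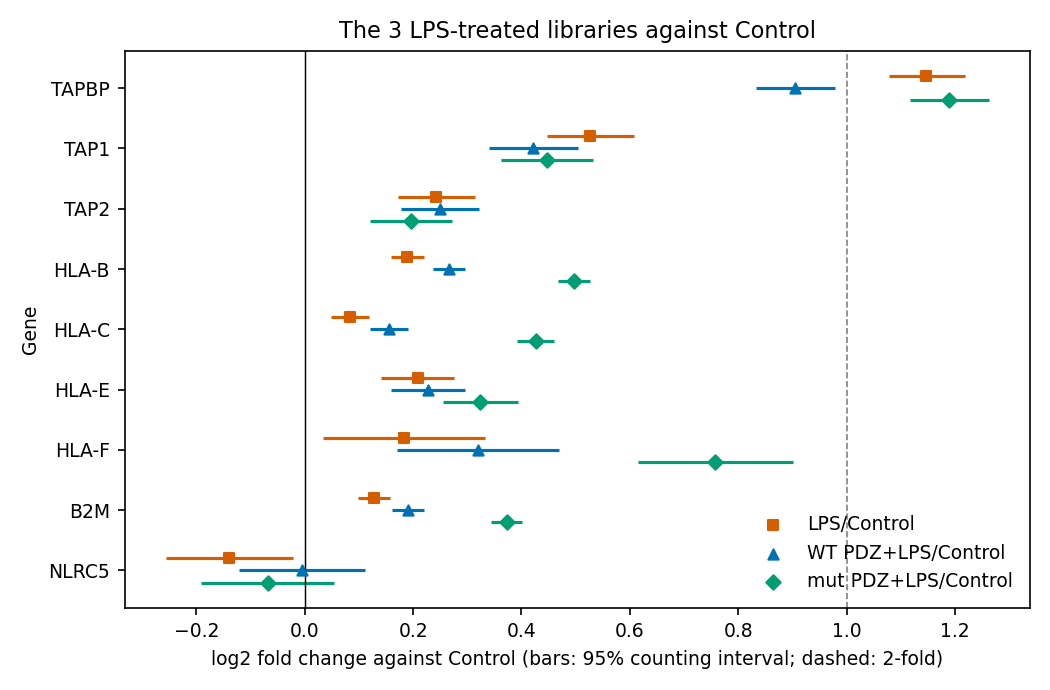
log2 fold change of each gene in the 3 LPS-treated libraries against Control, with bars for the 95% counting interval, which covers counting error only, and a dashed line at 2-fold. TAPBP lies at 1.15 with LPS alone, 0.91 with the WT peptide and 1.19 with the mut peptide, apart from the other 8 genes, of which the highest is HLA-F at 0.76 in mut PDZ+LPS/Control.

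Since library depth and scaling cancel within a library, the genes were also set against B2M, the light chain the heavy chains share. Reads on TAPBP per 100 reads on B2M were 12.9 (12.4 to 13.5) in Control, 26.2 (25.4 to 27.0) in LPS, 21.2 (20.5 to 21.9) with the WT peptide and 22.8 (22.0 to 23.5) with the mut peptide. All 3 LPS-treated libraries were above Control. The length trend of the mut PDZ+LPS library does not cancel in this ratio, since the transcript of TAPBP measures 3759 nt and that of B2M 1705 nt, so no order among the 3 is drawn from it. The GC trend of that library does not cancel either, at a GC content of 57.6% for TAPBP and 39.4% for B2M. Reads on TAP1 per 100 on B2M were 11.6 (11.1 to 12.2), 15.3 (14.8 to 15.9), 13.7 (13.1 to 14.2) and 12.2 (11.7 to 12.8) across the same libraries, and the intervals of mut PDZ+LPS and Control overlapped. Reads on TAPBP per 100 on TAP1 were 111 (105 to 118), 171 (163 to 179), 155 (148 to 163) and 186 (176 to 196). Tapasin reads therefore differed from Control by more than those of the transporter subunit in every LPS-treated library. NLRC5 gave 6.81 (6.44 to 7.21) reads per 100 on B2M in Control, 5.66 (5.32 to 6.02) in LPS, 5.95 (5.60 to 6.32) with the WT peptide and 5.02 (4.69 to 5.36) with the mut peptide, with Control the highest. The length and GC trends of the mut PDZ+LPS library do not cancel for TAP1 (2959 nt, 57.5% GC) or NLRC5 (6822 nt, 58.0% GC) against B2M either. With the length and GC trends removed, NLRC5 stood at 0.15 and B2M at 0.25 on the log2 scale in mut PDZ+LPS/Control.

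Within the heavy chains, HLA-B reads per 100 HLA-C reads were 127 (124 to 130) in Control, 137 (134 to 140) in LPS, 137 (134 to 141) with the WT peptide and 134 (131 to 137) with the mut peptide. Of the reads on the 4 heavy chain genes, HLA-B took 49.3% in Control and 50.6% in LPS, HLA-C 38.7% and 37.0%, HLA-E 9.96% and 10.4%, and HLA-F 2.04% and 2.09%. HLA-B and HLA-C made up most of the heavy chain reads in both libraries. In mut PDZ+LPS, HLA-F took 2.51% (2.35 to 2.68) of these reads and HLA-E 9.06% (8.77 to 9.37), against 2.09% (1.94 to 2.24) and 10.4% (10.0 to 10.7) in LPS. The longest coding transcript of HLA-E measures 2601 nt and that of HLA-F 1635 nt, so this shift ran in the direction of the length trend of the mut PDZ+LPS library, whose part in it was not tested. On the log2 scale in mut PDZ+LPS/LPS, HLA-F stood at 0.57 and HLA-E at 0.12 as counted. With the length and GC trends removed they stood at 0.25 and 0.04.

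**Figure D4:**
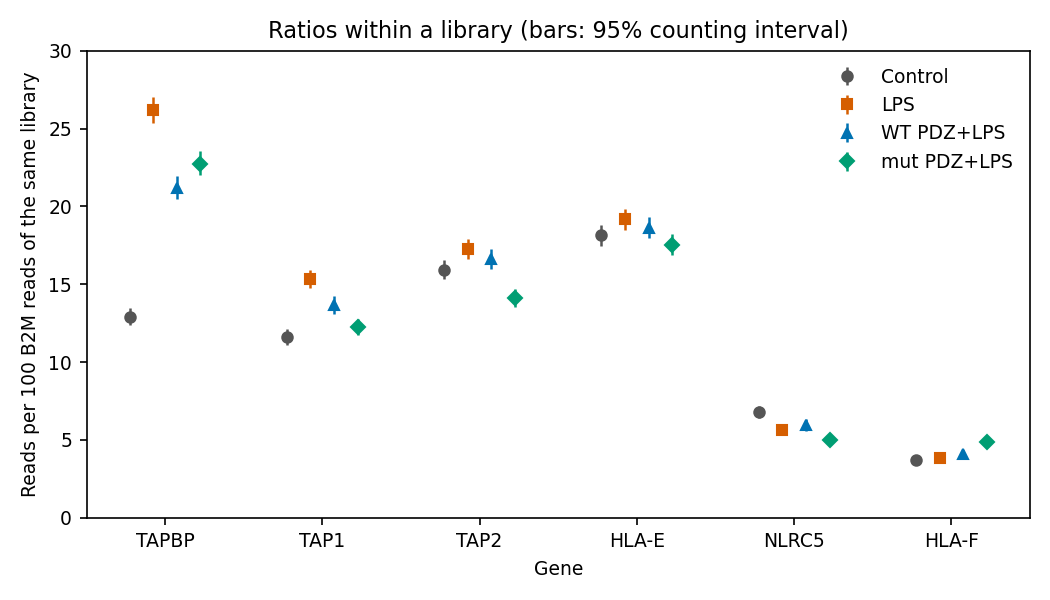
Reads on 6 of the genes per 100 reads on B2M of the same library, with 1 point per library and bars for the 95% counting interval. TAPBP goes from 12.9 in Control to 26.2 in LPS, 21.2 with the WT peptide and 22.8 with the mut peptide, while HLA-E stays between 17.5 and 19.2.

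The libraries with peptide were set against Control as well, and these comparisons share the Control library with LPS/Control. In WT PDZ+LPS/Control TAPBP had a log2 fold change of 0.91 (0.83 to 0.98), or 1.87-fold, and 0 of the 9 genes were called at least 2-fold higher, beside 3.28% of all genes. TAP1 had 0.42 (0.34 to 0.50), TAP2 0.25 (0.18 to 0.32), and the heavy chains and B2M between 0.16 and 0.32. The interval lay above 0 for 8 of 9 genes, beside 26.7% of all genes, with NLRC5 as the exception. In mut PDZ+LPS/Control TAPBP was 2.28-fold higher, a log2 fold change of 1.19 (1.12 to 1.26), and was the 1 gene called, beside 5.13% of all genes, while 0 were at least 2-fold lower, beside 2.96%. HLA-F followed at 0.76 (0.61 to 0.90), then HLA-B at 0.50 (0.47 to 0.53), TAP1 at 0.45 (0.36 to 0.53) and HLA-C at 0.43 (0.39 to 0.46), and the interval lay above 0 for 8 of 9 genes, beside 32.6% of all genes.

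A correction that removed the trends over transcript length and then GC content left TAPBP at 1.22 in mut PDZ+LPS/Control, and TAP1 at 0.39. It brought HLA-B to 0.18, HLA-C to 0.08 and HLA-F to 0.48, and raised TAP2, with a transcript of 5684 nt, from 0.20 to 0.50. HLA-B and HLA-C thus lost most of their difference, HLA-F kept more of its own, and the long TAP2 gained. The median of the 9 genes was 0.25 for WT PDZ+LPS/Control (all genes 0.010) and, for mut PDZ+LPS/Control, 0.43 (all genes -0.018), and with those trends removed it was 0.27 and 0.28. The correction did not remove the length trend in full and turned its sign. Its rho went from -0.451 to 0.0696 in mut PDZ+LPS/Control, from -0.603 to 0.0919 in mut PDZ+LPS/LPS and from -0.612 to 0.0981 between the peptides.

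The comparisons of WT PDZ+LPS and, separately, mut PDZ+LPS with LPS asked whether a peptide given before LPS went with a different level than LPS alone, and they share the LPS library. In WT PDZ+LPS/LPS TAPBP was lower, with a log2 fold change of -0.24 (-0.30 to -0.18), and TAP1 was lower as well, at -0.11 (-0.18 to -0.03). No difference was detectable at this depth for TAP2 (-0.06 to 0.08), HLA-E (-0.05 to 0.09) or HLA-F (-0.01 to 0.28). HLA-B at 0.08, HLA-C at 0.07, B2M at 0.06 and NLRC5 at 0.13 were higher by more than counting error. The interval thus lay below 0 for 2 of 9 genes, beside 10.2% of all genes, and above 0 for 4 of 9, beside 12.1%. None of these differences was near 2-fold, with 0 of 9 higher, beside 0.635%, and 0 of 9 lower, beside 0.733%. After the correction TAPBP stood at -0.24 and TAP1 at -0.09.

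In mut PDZ+LPS/LPS TAPBP was within counting error of LPS, at 0.04 (-0.02 to 0.10). TAP1 was slightly lower, at -0.08 (-0.16 to -0.00077), and TAP2 (-0.12 to 0.03) and NLRC5 (-0.06 to 0.20) had intervals that included 0. HLA-F was higher at 0.57 (0.43 to 0.72), HLA-C at 0.34 (0.31 to 0.38), HLA-B at 0.31 (0.28 to 0.34), B2M at 0.24 (0.22 to 0.27) and HLA-E at 0.12 (0.05 to 0.18). The interval lay above 0 for 5 of 9 genes, beside 28.8% of all genes, and below 0 for 1, TAP1, beside 33.7%. Again 0 of 9 were at least 2-fold higher, beside 2.05%, and 0 of 9 lower, beside 1.9%. These heavy chain values depended on the correction, which brought HLA-B to -0.07, HLA-C to -0.06, B2M to 0.06 and HLA-F to 0.25, and lifted TAP2 from -0.05 to 0.29 and NLRC5, with a transcript of 6822 nt, from 0.07 to 0.34. TAPBP stood at 0.08 and TAP1 at -0.15 after it. A length trend with a rho of 0.0919 remained after the correction, with longer transcripts higher, the direction in which TAP2 and NLRC5 moved.

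**Figure D5:**
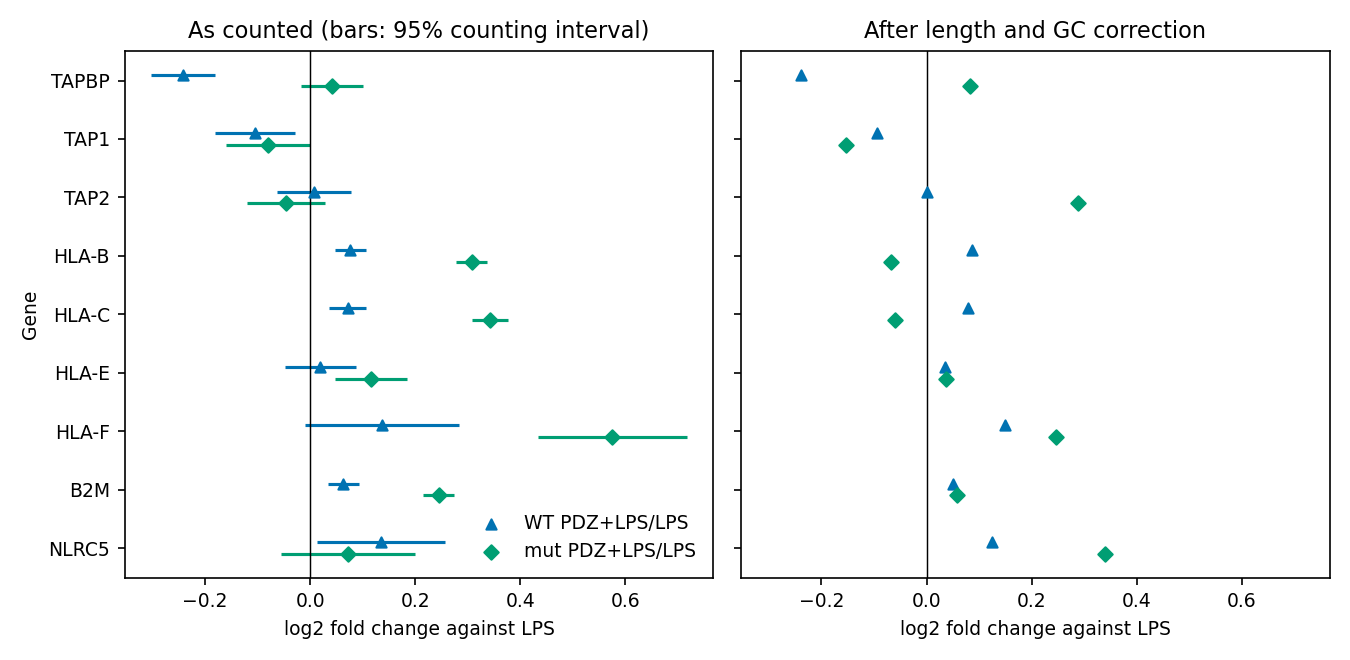
log2 fold change of each gene in the WT and mut peptide libraries against LPS, as counted with 95% counting intervals (left) and with the length and GC trends removed (right, no interval drawn). The WT PDZ+LPS points hardly move between the panels, with TAPBP at -0.24 in both, while in mut PDZ+LPS HLA-B goes from 0.31 to -0.07 and HLA-C from 0.34 to -0.06.

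The peptides, which differ by the change of glycines to alanines, were compared directly at the same times in mut PDZ+LPS/WT PDZ+LPS. TAPBP was higher with the mutant peptide by a log2 fold change of 0.28 (0.22 to 0.35), and by 0.31 after the correction. TAP1 differed by 0.02 (-0.06 to 0.11) and TAP2 by -0.05 (-0.13 to 0.02), so that at this depth no difference in the transporter subunits was detectable as counted, and after the correction they stood at -0.07 and 0.29. HLA-F was higher by 0.44 (0.30 to 0.58), HLA-C by 0.27 (0.24 to 0.31), HLA-B by 0.23 (0.20 to 0.26), B2M by 0.18 (0.15 to 0.21) and HLA-E by 0.10 (0.03 to 0.17). With the correction HLA-B turned to -0.17, HLA-C to -0.15 and HLA-E to -0.0041, and B2M came to 0.0019 and HLA-F to 0.09. Of the 6 genes whose interval lay above 0, beside 29.4% of all genes, TAPBP was the 1 whose value did not shrink under the correction. No gene of the 9 had an interval below 0, beside 34%, and 0 of 9 were at least 2-fold higher, beside 2.12%, or lower, beside 2.14%.

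The other genes of the pathway were followed through lists, of which the peptide loading and trimming list holds chaperones and enzymes. In LPS/Control 0 of its 11 members were called in either direction, beside 3.46% of all genes higher and 1.41% lower. Their median log2 fold change was 0.03. The 3 most abundant were near 0, with the lectin chaperones CANX at 0.03 (0.01 to 0.05) and CALR at -0.03 (-0.06 to -0.01) and the chaperone HSPA5 at 0.02 (-0.01 to 0.05). TAPBP thus stood at 1.15 beside values near 0 for these 3 genes, which were named by abundance. The list as a whole ran from -0.48 (-0.64 to -0.32) for LNPEP to 0.23 (0.15 to 0.31) for ERAP1. The immunoproteasome and proteasome activator list, whose products cut the peptides or help the proteasome to do so, also had 0 of 9 called in LPS/Control, with a median of 0.06. PSME3 stood at 0.06 (0.0025 to 0.11), and the interferon-inducible activator subunits PSME1 and PSME2 at 0.12 (0.06 to 0.18) and -0.13 (-0.19 to -0.06).

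Of the other class I and class I-like genes, 14 of 17 averaged at least 16 normalized counts, and the median of these was -0.15 in LPS/Control. In that comparison 0 were called, beside 3.46% of all genes higher and 1.41% lower. MICA and MICB, stress-induced ligands of the receptor NKG2D, stood at -0.11 (-0.23 to 0.02) and 0.08 (-0.04 to 0.21) in LPS/Control. Both intervals included 0. Beside 3.46% of all genes called higher in LPS/Control, 1 of 8 genes at that level in the list of surface turnover and inhibition was called. It was SUSD6, which was measured at 721, 3670, 3174 and 2720 normalized counts in Control, LPS, and the WT and mut peptide libraries, with a log2 fold change of 2.34 (2.24 to 2.46), and which is known to help direct class I molecules to degradation. HM13, a signal peptide peptidase, stood at -0.05 (-0.11 to 0.01).

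Among the 17 promoter regulators, of which 16 averaged 16 normalized counts or more, 2 were called higher in LPS/Control, beside 3.46% of all genes, and 0 lower, beside 1.41%. IRF1, a transcription factor of the IRF elements, was measured at 1069 normalized counts in Control, 13155 in LPS, 9895 with the WT peptide and 13572 with the mut peptide, a log2 fold change in LPS/Control of 3.62 (3.54 to 3.71). NFKB1, which encodes a subunit of NF-kB, was measured at 1909, 12845, 11534 and 7445 normalized counts, with 2.75 (2.68 to 2.82). Both were far above Control in every LPS-treated library. CIITA, the class II counterpart of NLRC5, had 4 to 6 counts per library. In WT PDZ+LPS/LPS 14 of the 16 regulators that averaged 16 normalized counts or more had a value below 0, with a median of -0.08.

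The interferon ligands were close to or at 0. IFNB1 had 1 count in LPS and 0 in the other libraries, and IFNG, IFNL2 and IFNL3 had 0 in all 4, where a count of 0 allows up to 3 counts per library. IFNE, an epithelial type I interferon, was the exception at 61, 86, 66 and 68 counts. The receptors were present, and 3 of the 14 genes of this list, of which 7 averaged 16 normalized counts or more, were called higher in LPS/Control, beside 3.46% of all genes. All 3 encode receptor subunits. IFNGR1 had a log2 fold change of 1.30 (1.22 to 1.39), IFNGR2 of 1.13 (1.04 to 1.22) and IFNAR2 of 1.04 (0.90 to 1.18). Class II presentation was low, with 3 of 13 genes at a mean of at least 16 normalized counts and HLA-DRA and HLA-DRB1 at 0 counts in every library. CTSS, a lysosomal protease, was the 1 gene of that list called higher in LPS/Control, beside 3.46% of all genes. It had 22, 79, 81 and 67 counts and a log2 fold change of 1.90 (1.26 to 2.71). CD74, the invariant chain, had 50, 60, 39 and 77 counts, and HLA-DPB1 had 58, 55, 48 and 51.

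The genes whose pattern was most like that of TAPBP were taken as the smallest Euclidean distance over the 3 log2 fold changes against Control, among the 10859 genes that averaged 100 normalized counts or more. IFNGR2 was the nearest at a distance of 0.06, with log2 fold changes of 1.13, 0.93 and 1.24 in LPS, the WT and the mut peptide libraries against Control beside 1.15, 0.91 and 1.19 for TAPBP. LRG1 at 0.12, with 133, 283, 202 and 216 counts in Control, LPS, and the WT and mut peptide libraries, and RCL1 at 0.13 came next. All 3 were lowest in Control, and the distance rests on 4 libraries and describes likeness of values only.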

How the data were processed

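Poly(A) RNA of 4 BEAS-2B libraries was sequenced in paired ends after preparation with a directional kit. The authors trimmed adapters and low-quality bases and, per the submitters' processing notes, used TopHat and build hg19. The deposited values are whole numbers per gene symbol with a different total in each library and were taken as raw read counts, although the study's methods also name an FPKM and geometric normalization of read counts. The counting intervals rest on that reading. The counting tool and its use of strand are not given in the sources used here. GENCODE 29 and the RefSeq promoters are on GRCh38, so only the promoters have coordinates.

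The 9 genes and all lists were chosen with earlier results of these data known. Counts (depth 24823347 in Control, 25155647 in LPS, 23446600 with the WT and 19682929 with the mut peptide) were divided by geometric size factors (DESeq2 1.42.0, R 4.3.3), and 1 normalized count was added before log2. Calls needed a 2-fold difference and 16 normalized counts (a log2 value of 4) in 1 of the 2 libraries compared. With 1 library per condition no test was run. Exact binomial 95% intervals cover counting error only. Length and GC trends were removed by lowess (span 0.3) over the longest protein-coding transcript, known for 11751 of the 13072 genes that averaged 16 normalized counts or more. From each list the genes called in LPS/Control were named, up to 6 by size of the log2 fold change, and filled up to 3 with the most abundant genes. Some genes that this rule names are not reported here. Alternatives were scaling by TMM (edgeR 4.0.16), by upper quartile and by total count, a pseudocount of 5, other expression and fold thresholds, the length and GC correction, and leaving out the HLA genes. The steps were tested on simulated data. The figures were drawn with matplotlib 3.10.9, intervals came from scipy 1.17.1, the lowess from statsmodels 0.14.6, and tables were handled in Python 3.11.15 with pandas 2.3.3.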

Additional observations from a re-analysis of the deposited data

Results flagged for a closer look

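Of the genes named beside the 9, 4 lay on opposite sides of the LPS library with the WT and the mut peptide, each beyond counting error. Both comparisons share the LPS library, and the difference between them was not tested. The share of all genes on opposite sides in this way was not counted, so these 4 have no background to be read against. With the mut peptide, 28.8% of all genes lay above LPS and 33.7% below it by more than counting error. The WT peptide gave 12.1% above and 10.2% below. Against LPS, CANX stood at 0.12 on the log2 scale with the WT peptide and at -0.42 with the mut peptide, the latter -0.19 once length and GC trends were removed. PSME3 stood at 0.064 with the WT and -0.61 with the mut peptide, the latter -0.49 without the trends. IRF1 stood at -0.41 with the WT and 0.045 with the mut peptide, the latter 0.14 without the trends. IFNGR2 stood at -0.20 with the WT and 0.11 with the mut peptide, and the latter turned to -0.039 without the trends. None of the 9 MHC class I presentation genes met this rule, since TAPBP, at -0.24 with the WT and 0.04 with the mut peptide, had an interval with the mut peptide that included 0.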

How the results depend on the processing

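Of 324 values of single genes under the alternatives, 256 moved by less than their counting interval, 61 moved further, and 7 whose interval had not included 0 changed sign. Among the 61 are values whose interval included 0 and that crossed it, such as TAP2 in mut PDZ+LPS/LPS, from -0.05 to 0.29 under the length and GC correction. TMM scaling and a pseudocount of 5 moved none. That pseudocount is small beside the lowest value of these genes, 621 normalized counts for HLA-F in Control. An expression rule of 64 normalized counts enters only the calls and medians. Its 54 values, counted among the 256, were therefore the same by construction and tested nothing. Total-count scaling set the median of all genes against Control to -0.13 in LPS, -0.12 with the WT peptide and -0.12 with the mut peptide, and the median of the 9 genes to 0.058, 0.12 and 0.33. Under it B2M came to -0.0037 and HLA-C to -0.048 in LPS/Control, where 5 intervals lay above and 2 below 0, while 1 lay below 0 with either peptide against Control and 0 did in mut PDZ+LPS/LPS. Upper-quartile scaling also left 0 below 0 there. The length and GC correction gave medians of 0.28 in mut PDZ+LPS/Control and, between the peptides, 0.0019. It put 3 intervals below 0 in mut PDZ+LPS/LPS, and 3 above and 2 below 0 between the peptides. It turned HLA-B to -0.067 and HLA-C to -0.059 in mut PDZ+LPS/LPS, and HLA-B to -0.17, HLA-C to -0.15 and HLA-E to -0.0041 between the peptides. Without the HLA genes the median was 0.042 in mut PDZ+LPS/LPS, and 0.025 between the peptides. At 3-fold, 0 genes were called in LPS/Control and 0 with the mut peptide against Control. At 1.5-fold, 1 was called with the WT and 2 with the mut peptide against Control. The causes were not tested. No paired analysis was possible because each condition had 1 library. At 19682929 counts in the shallowest library, differences of HLA-F and NLRC5 carried the widest counting intervals of the 9 genes.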
